A study of Mus musculus with 7 samples.

Results

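Cytoplasmic ribosomal protein genes encode the protein component of the machine that translates messenger RNA. They were taken here as the entries of the authors' gene table whose symbol starts with Rpl or Rps followed by a digit, together with Rplp0, Rplp1, Rplp2 and Rpsa. Symbols of the S6 kinases (Rps6k), symbols with -ps and entries naming several genes were left out. The rule found 85 of 23358 entries: 51 named for the large (60S) subunit, 33 named for the small (40S) subunit, and Rps19bp1, which carries the name pattern but is a binding partner of Rps19 and a regulator of the deacetylase Sirt1. The rule used names only and no measured value.

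Brain cells labelled as endothelial were compared between 3 control and 4 Tgfbr2-deficient libraries, all from C57Bl6 mouse embryos at E14.5. Tgfbr2 is the type II receptor for transforming growth factor β. Cells of both groups carried the Ai14 reporter and were sorted for TdTomato, the red fluorescence it gives after Cre recombination, and RNA of 2000 to 5000 cells per library was read as single-end reads of 50 bases. The sources used here do not give the Cre driver, the exons removed, or which of these alleles the controls carried. The values are FPKM, a fragment count divided by transcript length and library size, with 1 value per gene and group as the authors deposited it. Values per library were not analysed here, so the depth and the spread between libraries are unknown, no standard deviation can be given, and the q-value of the authors' Cuffdiff test is the error measure for a gene. The labels do not state whether the libraries within a group are from different embryos, so a q-value covers the spread of these libraries only, and that spread can be technical.

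Each ribosome is assembled from ribosomal RNA and a full set of these proteins, most of them in a single copy, so cells make them in matched amounts. Their genes are among the most active in growing cells. Most of their messenger RNAs begin with a terminal oligopyrimidine tract, an unbroken run of C and T at the very start, through which the kinase complex mTORC1 and the protein Larp1 govern their translation as a group. Vertebrate genomes also hold many processed pseudogenes of this family, which are reverse-transcribed copies of the messenger RNAs.

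The start of the transcript is the feature for which the family is known, so it is shown first. RefSeq promoter windows of GRCm38.p6 were matched by symbol for 64 of the 85 genes. In 28 of the 64 genes (43.8%) a run of 8 or more C or T on the gene's strand overlapped the 10 bases on either side of an annotated start. The same was found in 15.8% of all 27025 genes with a window, in 17% of the other tested genes and in 15.5% of the other tested genes at 100 FPKM or more in a group. The windows below are centred on the annotated start, run 5′ to 3′ on the gene's strand, and are 30 bases long. Capitals mark the longest C or T run that overlaps the 10 bases on either side of the start, and it need not reach the start itself. The first set is shown for long runs, and holds both genes that passed the test of the group comparison and genes that did not.
Rpl35 (chr2:39005117-39005146, minus strand): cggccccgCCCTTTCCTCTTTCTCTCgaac
Rpl14 (chr9:120571502-120571531, plus strand): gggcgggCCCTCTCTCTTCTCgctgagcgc
Rps18 (chr17:33955651-33955680, minus strand): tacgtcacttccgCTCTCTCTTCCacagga
Rpl15 (chr14:18270972-18271001, minus strand): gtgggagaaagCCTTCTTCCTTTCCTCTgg
Rpl7a (chr2:26910792-26910821, plus strand): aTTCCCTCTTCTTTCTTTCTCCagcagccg
The second set is shown for short runs near the annotated start and again holds genes of both kinds.
Rpl10 (chrX:74270801-74270830, plus strand): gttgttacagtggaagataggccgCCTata
Rps16 (chr7:28350674-28350703, plus strand): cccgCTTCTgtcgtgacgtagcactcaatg
Rps2 (chr17:24720048-24720077, plus strand): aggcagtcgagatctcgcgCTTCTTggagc
Rplp0 (chr5:115559452-115559481, plus strand): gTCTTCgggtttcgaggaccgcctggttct
Rpl41 (chr10:128549154-128549183, minus strand): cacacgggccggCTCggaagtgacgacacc
The runs of the first set were 18 bases in Rpl35, 14 in Rpl14, 11 in Rps18, 17 in Rpl15 and 21 in Rpl7a. Those of the second set were 3 in Rpl10, 5 in Rps16, 6 in Rps2, 5 in Rplp0 and 3 in Rpl41. A run is a description of these letters. A short run says only that no longer one overlaps the 10 bases on either side of the annotated start.

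As a check of the labels, Tgfbr2 itself went from 91.1 to 65.4 FPKM between control and Tgfbr2-deficient cells, and at q = 0.0953 in the authors' deposited table it did not pass the threshold of 0.05. The defining markers of the labelled cell type were low in the control group: Kdr, the VEGF receptor of endothelium, had 1.94 FPKM there and 43.0 FPKM in cells labelled Tgfbr2-deficient. Csf1r, the receptor on which macrophages depend, had 1247 and 494 FPKM. Of 15 microglia and macrophage markers 14 were lower in the Tgfbr2-deficient group, and their summed level went from 12200 to 5513 FPKM. Of 14 endothelial markers 13 were higher, with a summed level going from 82 to 393 FPKM, and no marker of either list was listed at 0. All tested markers of red blood cells (6), of fibroblasts and pericytes (10) and of neurons and progenitors (8) were higher as well, and so were 7 of 8 mast cell and platelet markers. Several of the higher markers, such as the endothelial Flt1 (0.462 and 12.7 FPKM), reached the minimum of 1 FPKM only in the Tgfbr2-deficient group. The macrophage markers moved in the same direction as the ribosomal protein values below, and nearly all other tested markers moved in the opposite direction. The part of these cell types in the ribosomal protein values was not tested. In bulk RNA, fewer cells of a type and less RNA per cell cannot be told apart.

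The ribosomal protein genes were lower in the Tgfbr2-deficient group by a similar proportion across almost the whole family. Of the 85 genes, 82 were tested by the authors and reached 1 FPKM in either group. Their median level went from 237.2 to 162.1 FPKM, and their median log2 fold, taken here on FPKM + 1 as Tgfbr2-deficient over control, was −0.54, a linear ratio of 0.685. The fold was below 0 in 81 of the 82 genes on the deposited scale, and in 53 of 82 when the folds were centred on the other genes at 100 FPKM or more. At q under 0.05 in the authors' deposited table, a total of 42 genes of the 82 fell (51.2%), beside 14.7% of all 13356 tested genes, and 40 did not pass. None of the 82 was called higher by the authors' Cuffdiff test, beside 23.9% of all tested genes, and Rps2, the only gene with a fold above 0, had an unadjusted p of 0.367 in the authors' deposited table. At an unadjusted p under 0.05, 54 of the 82 genes were lower and 0 were higher. At a deposited q under 0.01 the family had 11 lower genes and 0 higher ones, beside 7.68% and 20.3% of all tested genes.

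**Figure D1:**
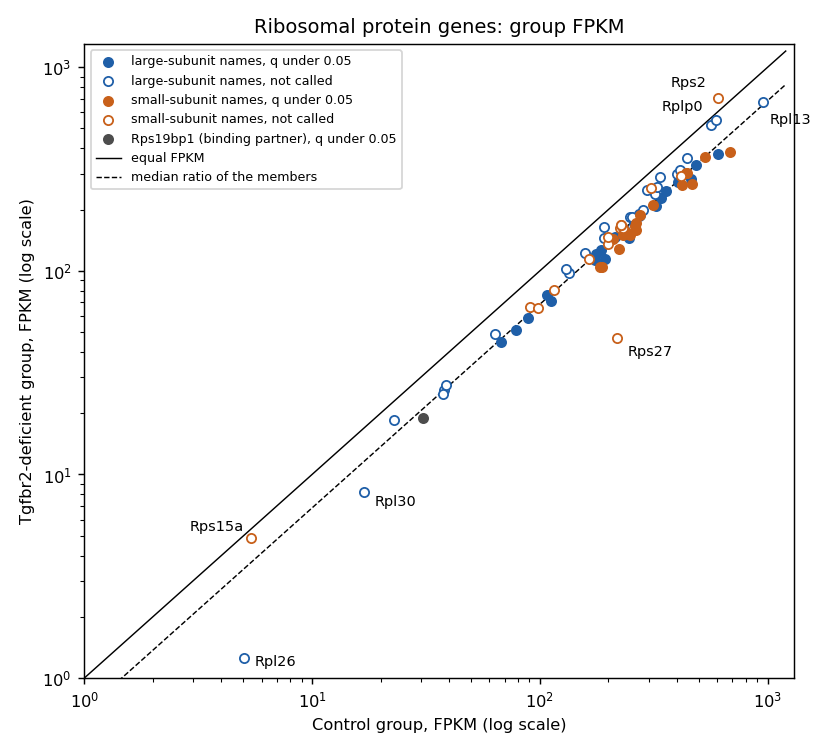
FPKM of the 82 tested ribosomal protein genes in the control group (x axis, log scale) and the Tgfbr2-deficient group (y axis, log scale), 1 point per gene. Filled points had a q under 0.05 in the authors' deposited table; 81 of 82 points lie below the line of equal FPKM and most follow the dashed line of the median ratio, 0.685, while Rps2 lies above equality and Rps27 far below. When folds are centred on the other genes at 100 FPKM or more, 53 of the 82 lie below 0.

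The family is abundant, and abundant genes of any kind were often lower in these groups. Of the 82 tested genes, 72 were among the 1335 tested genes with the highest mean FPKM (the top 10%). Among the 929 other tested genes at 100 FPKM or more in a group, 42.9% were lower and 7.86% higher by the deposited q-values. Among the 68 ribosomal protein genes of that abundance, 38 were lower (55.9%), and over all 997 tested genes of that abundance 43.8% were lower and 7.32% higher. The order turned at the stricter threshold: at q under 0.01 the 11 ribosomal protein genes called lower, all of that abundance, were 11 of 68, while 27.9% of the 929 other genes were lower and 6.57% higher. The share of calls thus did not place the family and the other abundant genes in the same order at both thresholds. The median fold of those 929 genes was −0.50, close to the −0.54 of the ribosomal protein genes and far from the −0.08 of all tested genes. The 2 groups of abundant genes differed in description in their width. The interquartile range of the log2 fold was 0.17 over the ribosomal protein genes, 0.55 over the other abundant genes and 0.97 over all tested genes. A narrow width was not particular to the family. Among the related lists described below it was 0.20 for ribosome assembly, 0.23 for the proteasome and 0.24 for oxidative phosphorylation. It was 0.25 for mitochondrial ribosomal proteins and reached 0.55 for S6 kinases and mTORC1. Of the 82 genes, 75 had a log2 fold between −0.85 and −0.20. These widths were not tested, since genes counted from the same libraries are not replicates.

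**Figure D2:**
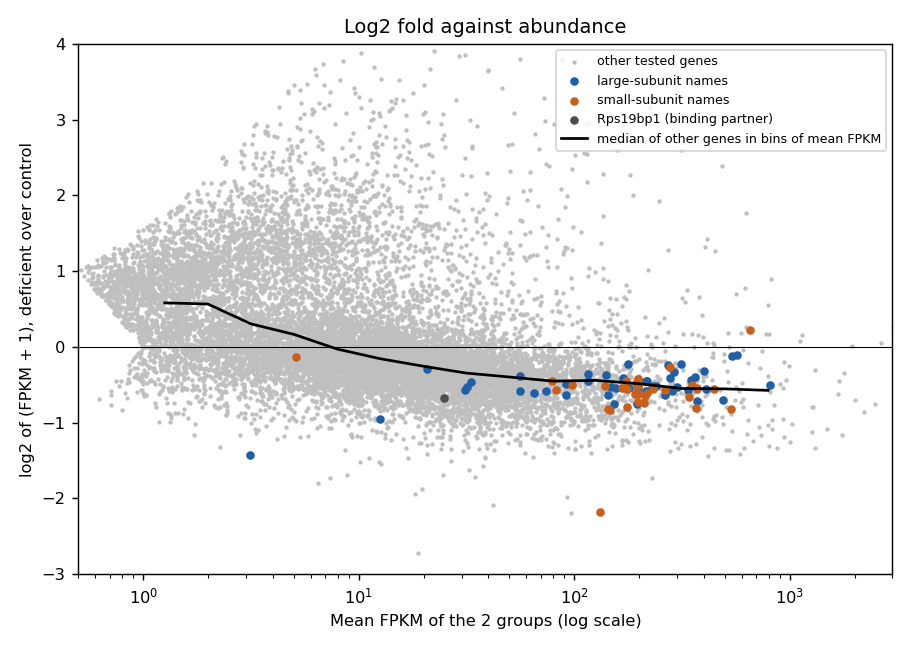
Log2 fold on FPKM + 1 (Tgfbr2-deficient over control, y axis) against the mean FPKM of the 2 groups (x axis, log scale) for all tested genes (grey) and for ribosomal protein genes (coloured), with the median of the other genes in bins of mean FPKM as a line. The line passes from above 0 at low FPKM to below 0 at high FPKM, and most ribosomal protein genes lie near it in a narrow band.

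The share of all FPKM that fell to the family was smaller in the Tgfbr2-deficient group. Summed over all 85 genes it went from 21635 FPKM in the controls to 15306 FPKM in the Tgfbr2-deficient group, which is 4.31% and 3.49% of the FPKM of the entries the authors tested. Over all entries the shares were 4.06% and 3.48%, but that control total holds globin entries marked as having too many fragments, such as Hbb-y, listed at 24570 FPKM in the controls and at 0 in the Tgfbr2-deficient group. The embryonic globin genes Hba-x and Hbb-bh1 took a larger part of the Tgfbr2-deficient total; without them, over the tested entries, the shares were 4.34% and 3.68%. Rescaling both groups to the same total over tested entries adds 0.20 to every log2 fold, or 0.26 without these globins. The median of the ribosomal protein genes was then −0.35 and −0.28, and 78 and 75 of the 82 genes kept a fold below 0.

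Among proteins of the small subunit, 18 of 33 tested genes fell (54.5%), with a median log2 fold of −0.55 and quartiles of −0.67 and −0.50. That share stands beside 14.7% of all tested genes and 42.9% of the other tested genes at 100 FPKM or more. Rps12, a protein of the beak of the small subunit that is known from cell competition in flies, had the lowest q of the family, 0.000787 in the authors' deposited table, and fell from 184 to 104 FPKM. Its entry lies on chromosome 10 from 23785183 to 23787209 in mm10. Rps27l, a paralogue of Rps27 that p53 induces, fell from 188 to 105 FPKM, a 1.79-fold difference and the greatest among the genes that passed. Rps29, a zinc-binding protein of the head, fell from 468 to 267 FPKM, and Rps25, which several viral entry sites need to recruit ribosomes, fell from 223 to 128 FPKM. The q-values of Rps27l, Rps29 and Rps25 ran from 0.00165 to 0.00244 in the authors' deposited table.

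Other small-subunit genes passed with at least a 1.5-fold difference. Rps27a, which encodes ubiquitin fused to a ribosomal protein, fell from 264 to 158 FPKM. Rps18, a head protein that forms a bridge to the large subunit, fell from 420 to 264 FPKM. Rps16, whose tail reaches the transfer RNA in the P site, fell from 261 to 166 FPKM. Rps20 fell from 264 to 172 FPKM, and the X-linked Rps4x from 232 to 151 FPKM. The highest q of these 5 genes was 0.0167, for Rps20, in the authors' deposited table. At smaller folds, Rps19, the gene most often mutated in Diamond-Blackfan anaemia, fell from 440 to 301 FPKM, Rps14 from 442 to 302 FPKM, and Rps9 from 532 to 363 FPKM.

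Small-subunit genes that did not pass ran from a log2 fold of −2.18, for the Rps27 entry, to 0.22, for Rps2. The Rps27 locus was split over entries, as described below, so the lower end is uncertain. Rps2, a protein at the entry of the messenger RNA channel, had 602 FPKM in the controls and 704 FPKM in Tgfbr2-deficient cells, at q = 0.496 in the authors' deposited table. Among the 82 tested genes it is the only one whose value was higher in the Tgfbr2-deficient group, and its entry lies on chromosome 17 from 24720063 to 24721927. Rpsa, a 40S protein also known as the laminin receptor, had 306 and 254 FPKM (q = 0.397 in the authors' deposited table). Rps6, the substrate for which the S6 kinases are named, had 227 and 169 FPKM, with q = 0.119 in the authors' deposited table. Rps15a was among the least abundant genes at 5.41 and 4.87 FPKM. Rps24, at 115 and 80.8 FPKM, lay just outside the threshold with q = 0.0509 in the authors' deposited table, and 11 genes of the family had a q between 0.05 and 0.1.

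Among proteins of the large subunit, 23 of 48 tested genes fell (47.9%), with a median log2 fold of −0.53 and quartiles of −0.58 and −0.40. That share is near the 42.9% of the other tested genes at 100 FPKM or more, beside 14.7% of all tested genes. Rpl36al, an autosomal paralogue of the X-linked Rpl36a, fell from 246 to 145 FPKM with q = 0.00165 in the authors' deposited table. Rpl35a, a Diamond-Blackfan anaemia gene, fell from 193 to 114 FPKM, a 1.69-fold difference. Rpl10, which joins late and completes the P site, fell from 461 to 282 FPKM with q = 0.00584 in the authors' deposited table. Rpl10a, the protein of the mobile L1 stalk, fell from 175 to 112 FPKM, and Rpl32, the most abundant large-subunit gene that passed, from 608 to 375 FPKM. Rpl5, which carries 5S ribosomal RNA into the subunit and can bind the p53 regulator Mdm2, fell from 112 to 71.5 FPKM, with q = 0.0246 in the authors' deposited table. Its partner in that complex, Rpl11, had 250 and 183 FPKM and did not pass at q = 0.0880 in the authors' deposited table, and the difference between the partners was not tested.

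The other large-subunit genes that passed with at least a 1.5-fold difference were Rpl36, Rpl8, Rpl28, Rpl27a, Rpl36a and Rpl7l1. Rpl36 fell from 323 to 208 FPKM and Rpl8, which lies by the peptidyl transferase centre, from 340 to 227 FPKM. Rpl28 went from 259 to 172 FPKM, and Rpl27a from 78.7 to 51.5 FPKM. Rpl36a fell from 88.4 to 58.9 FPKM and lay just inside the threshold with q = 0.0492 in the authors' deposited table. Rpl35 and Rpl3 were more abundant and also passed: Rpl35 fell from 487 to 330 FPKM and Rpl3, another protein of the peptidyl transferase centre, from 404 to 271 FPKM. Rpl23, whose fold was the smallest among the genes that passed, went from 108 to 76.1 FPKM, and its log2 fold of −0.50 became 0.0069 when centred on the other genes at 100 FPKM or more.

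Several of the most abundant large-subunit genes did not pass. Rpl13 had the highest level of the family, 950 FPKM in the controls and 673 FPKM in Tgfbr2-deficient cells, at q = 0.0890 in the authors' deposited table. Rpl41, which encodes the shortest protein of the family from a coding sequence of 75 bases, had 567 and 519 FPKM. Rpl4, which has the longest coding sequence at 1257 bases and lines the exit tunnel, had 443 and 356 FPKM. Rpl38, which mouse embryos need to translate a subset of Hox messenger RNAs, had 294 and 250 FPKM. The q-values of Rpl41, Rpl4 and Rpl38 were 0.675, 0.318 and 0.736 in the authors' deposited table. At the low end, Rpl26, which lies at the exit of the tunnel, had 5.03 and 1.25 FPKM (q = 0.716) and Rpl30 had 16.9 and 8.24 FPKM (q = 0.482) in the authors' deposited table.

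The P stalk, where Rplp0 anchors dimers of Rplp1 and Rplp2 that recruit elongation factors, had a median log2 fold of −0.39, and 0 of its 3 genes passed the authors' Cuffdiff test. Rplp0 had 593 and 549 FPKM, the smallest fold below 0 in the family. Rplp1 had 413 and 314 FPKM, and Rplp2 had 253 and 184 FPKM. The q-values were 0.773 for Rplp0, 0.131 for Rplp1 and 0.0868 for Rplp2 in the authors' deposited table, and 1 of the 3, Rplp2, had an unadjusted p under 0.05. Whether the stalk differed from the rest of the subunit was not tested, and likewise for the 2 subunits.

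**Figure D3:**
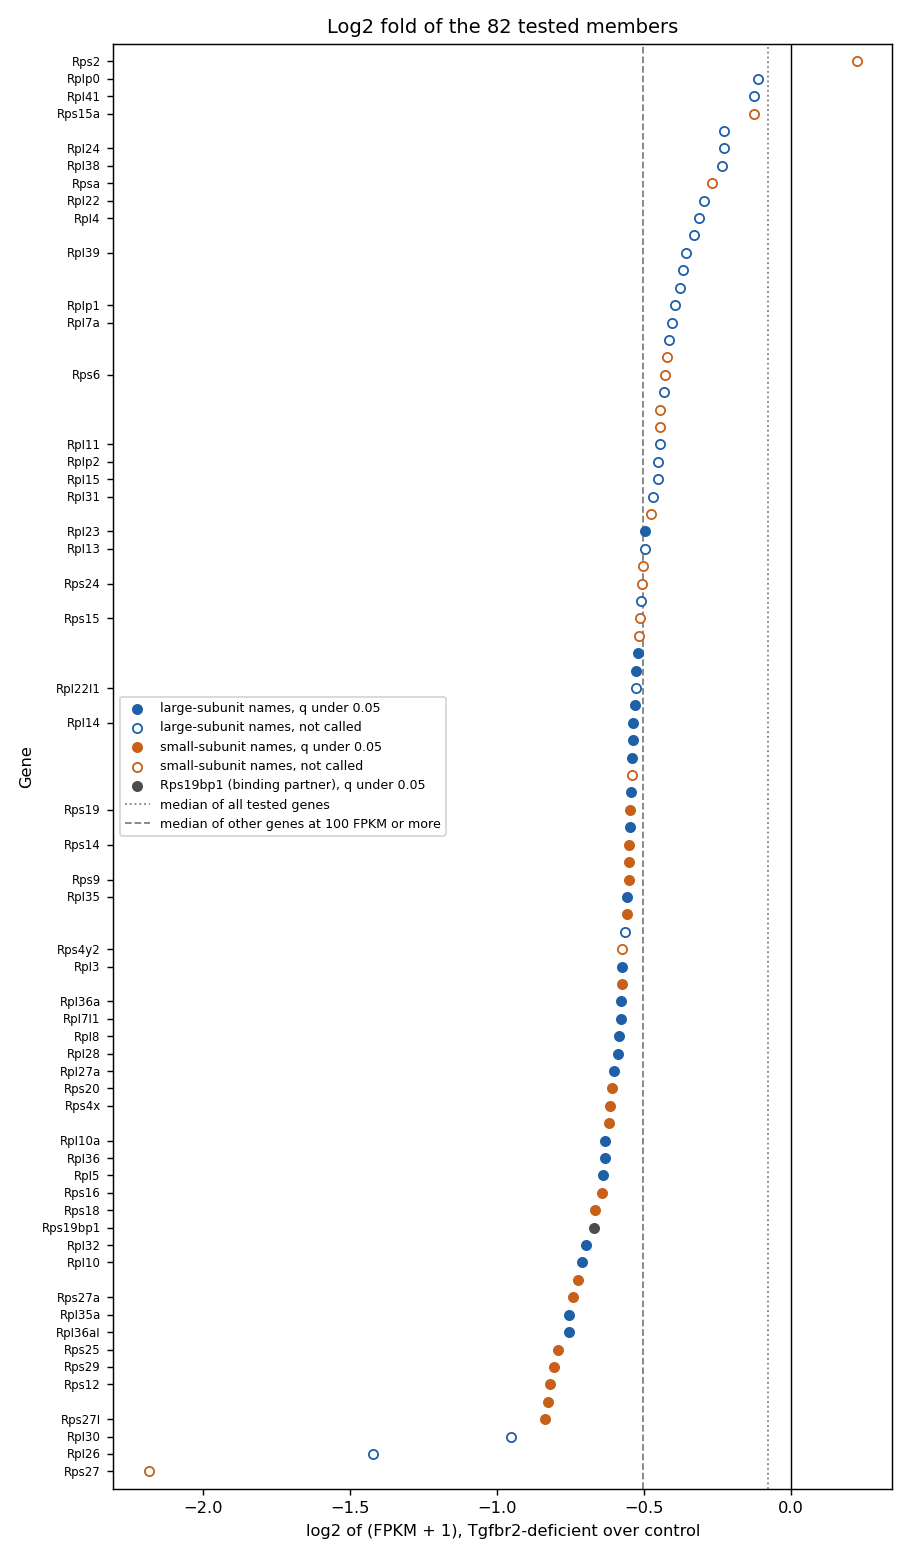
Log2 fold on FPKM + 1 (Tgfbr2-deficient over control, x axis) of each of the 82 tested ribosomal protein genes, in order of fold (y axis, 1 point per gene, some of them labelled), with filled points for a q under 0.05 in the authors' deposited table. Genes that passed crowd between about the dashed median of the other abundant genes, −0.50, and Rps27l, while the genes at either end (Rps2, Rplp0 and Rpl41 at the top, Rpl30, Rpl26 and Rps27 at the bottom) did not pass.

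Paralogues that some tissues use in place of a core protein were present at unequal levels. Of the 8 such genes found, 5 were tested and 3 fell: Rps27l, Rpl36al and Rpl7l1, the last a nucleolar relative of Rpl7, from 67.5 to 44.9 FPKM. Rpl22l1, the paralogue of Rpl22, had 37.9 and 25.97 FPKM, beside 23.0 and 18.5 FPKM for Rpl22 itself, and neither passed. Rps4y2 had 98.3 and 65.7 FPKM and did not pass; GENCODE M21 names the gene at its locus Rps4l and annotates it as a transcribed processed pseudogene. The muscle paralogue Rpl3l stood at 0.125 and 0.747 FPKM, below the minimum of 1 FPKM. The testis paralogues Rpl10l, listed at 0 in both groups, and Rpl39l, at 0.607 and 0.258 FPKM, were not tested by the authors. Rps19bp1, the binding partner, fell from 30.7 to 19.0 FPKM with q = 0.0244 in the authors' deposited table.

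Genes grouped by other properties did not stand far from the family median. Of 22 genes known from Diamond-Blackfan anaemia, an inherited failure of red cell production, 13 fell (59.1%) and the median log2 fold was −0.55. Over the whole family 51.2% fell, beside 14.7% of all tested genes and 42.9% of the other tested genes at 100 FPKM or more. Of 4 X-linked genes, Rpl10, Rpl36a and Rps4x fell and Rpl39, at 131 and 102 FPKM, did not pass. Of the ribosomal proteins made as a fusion with ubiquitin or a relative of it, Rps27a is described above. Fau, outside the name rule, fell from 311 to 199 FPKM. Genes with a small nucleolar RNA annotated inside them numbered 30, of which 13 fell with a median of −0.51, beside 29 of 52 and −0.55 for the others.

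Genes with and without a long run near the start had the same median fold. Of the 28 tested genes with a C or T run of 8 or more near the start 13 fell, with a median log2 fold of −0.53. Of the 33 tested genes with a shorter run 16 fell, also with a median of −0.53. In the windows printed above, Rpl35, Rpl14 and Rps18 of the long runs passed and Rpl15 and Rpl7a did not, and Rpl10 and Rps16 of the short runs passed while Rps2, Rplp0 and Rpl41 did not. Another 4 motifs were searched on both strands of the window, from 250 bases before to 50 after the start. The GC box GGGCGG was in 62.5% of the 64 genes, 69.2% of the other tested genes and 38.2% of all genes. The ETS motif CCGGAAGT was in 18.8%, 8.51% and 4.31%, and the YY1 motif AAGATGGC in 9.38%, 5.07% and 3.19%. The TATA box TATAAA was in 10.9% of the genes, 8.75% of the other tested genes and 15.7% of all genes. Its share was 13.1% of the other tested genes at 100 FPKM or more. Of the 7 genes that held it 1 fell, with a median log2 fold of −0.36. Of tested genes with the GC box 19 of 39 fell (median −0.53), with the ETS motif 4 of 12 (−0.51) and with the YY1 motif 2 of 6 (−0.54). The motifs can overlap each other and the run, these shares were not tested, and a match is a description of letters and not a binding site.

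Reads of 50 bases cannot always tell a ribosomal protein gene from its copies, and the sources used here do not say how the authors placed such reads. For 81 tested genes with an annotated coding transcript in GENCODE M21, the median share of coding windows of 50 bases that occur exactly in another gene's transcript was 90.3%. Rpl7a shared windows with 123 other genes, Rpl29 with 84, Rpl21 with 82 and Rps2 with 71. Rps19bp1 shared none. The 67 genes with at least 50% of windows shared had a median log2 fold of −0.54 and 34 fell; the 14 genes below 50% had −0.56 and 8 fell. Across the 81 genes, which come from the same libraries and are not independent, Spearman's rho between the share and the fold was 0.01, and between the share and the mean FPKM −0.10. Spearman's rho with coding length was 0.21 for the fold and 0.29 for the mean FPKM.

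At the Rps27 locus, sequence was split over entries, and the fold of a single entry is uncertain. The entry Rps27 had the most negative log2 fold of the family, −2.18, at 217 and 47.0 FPKM, with q = 0.338 in the authors' deposited table. A further entry at the same position, chromosome 3 from 90212667 to 90213648, names Gm9846 and Rps27 together and had 95.2 and 178 FPKM. Their sum was 313 and 225 FPKM, a log2 fold of −0.48, close to the family median. Rpl34 likewise has no entry of its own: an entry naming it with Rpl34-ps1 had 201 and 161 FPKM, Rpl34-ps1 alone had 40.2 and 13.5 FPKM, and the sum of 241 and 174 FPKM gave −0.47. In 7 genes the deposited entry spanned at least 10 times the annotated gene. Rps15 was the longest, with 672333 bases for a gene of 1662 bases; it had 233 and 163 FPKM, and its q was 0.806 in the authors' deposited table at a log2 fold of −0.51, near that of genes that passed. Of these 7 genes, Rps27a, Rpl32 and Rpl5 fell, and Rps15, Rpl38, Rpl31 and Rps4y2 did not pass.

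**Figure D4:**
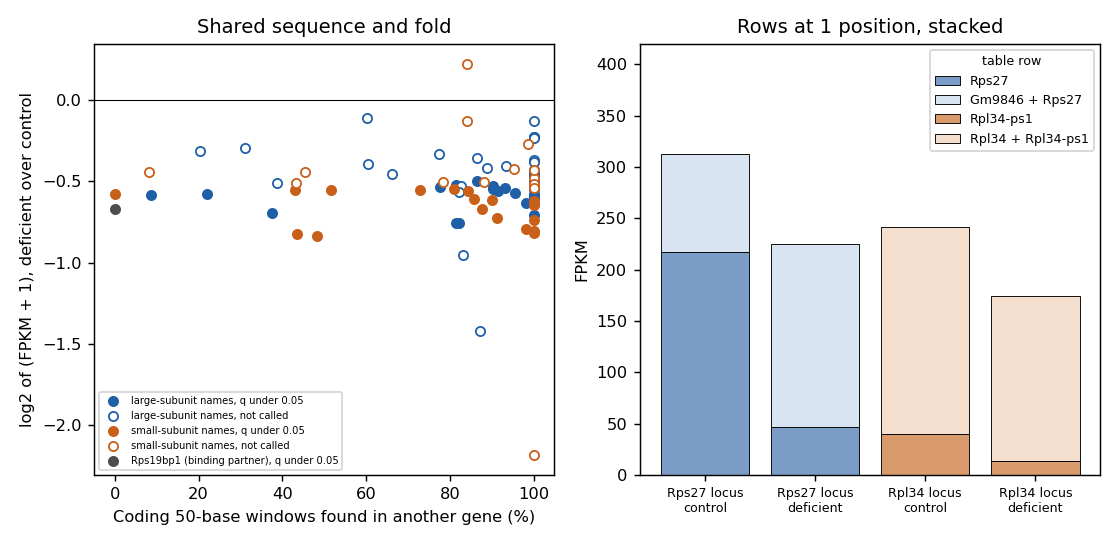
Left, log2 fold on FPKM + 1 (y axis) against the percentage of coding 50-base windows found in another gene (x axis) for 81 ribosomal protein genes, in which no trend is seen (Spearman's rho 0.01). Right, stacked FPKM of the 2 entries at the Rps27 locus and the 2 entries at the Rpl34 locus in each group; the summed bars, 313 and 225 FPKM for Rps27, differ far less than the Rps27 entry alone.

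Genes of the wider translation pathway had medians below 0 but closer to it than the ribosomal proteins, and above 0 when centred on the other genes at 100 FPKM or more. The lists were not tested against each other. Their shares of lower genes were 15% of the further oligopyrimidine messenger RNAs, 5.26% of the initiation list and 27.3% of elongation and release factors. Among all tested genes 14.7% were lower, near the first share. Among the other tested genes at 100 FPKM or more, nearer in level to the oligopyrimidine list, 42.9% were. Of 20 further messenger RNAs known to carry the oligopyrimidine tract, 3 fell: Fau, Eef1d, an exchange factor for the elongation factor eEF1A, from 76.4 to 51.3 FPKM, and Gnb2l1, which encodes the 40S scaffold Rack1, from 255 to 173 FPKM. Their median was −0.36, and Eef1a1, the most abundant of them, had 1075 and 904 FPKM without passing. The initiation list was taken by name, Eif followed by a digit. It therefore also holds genes that are not initiation factors, such as the Eif2ak, Eif4ebp and Eif2c genes. Of its 57 tested genes, 3 fell, with a median of −0.32 over the list. Eif3l fell from 100.3 to 68.5 FPKM, the stress kinase gene Eif2ak2 from 8.99 to 5.76 FPKM, and the mTORC1 target Eif4ebp2 from 19.1 to 12.7 FPKM. Of 11 genes of the elongation and release list, 3 fell, Gspt2, Eef1d and the eEF2 kinase gene Eef2k, and the median was −0.29. Another 1 rose: Eef1a2, a form of eEF1A found in neurons and muscle, went from 0.448 to 1.59 FPKM. Eef1a2 lay near the floor and reached the minimum of 1 FPKM only in the Tgfbr2-deficient group.

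Ribosome assembly genes numbered 39, of which 6 fell (Nhp2, Wdr12, Nop10, Pes1, Fbl and Nop2), with a median of −0.33; this share, 15.4%, is near the 14.7% of all tested genes. Nhp2, a protein of the small nucleolar particles that guide pseudouridylation, fell from 68.5 to 39.99 FPKM, and its partner Nop10 from 69.3 to 45.1 FPKM. Wdr12 and Pes1, which act in one complex on the large subunit, fell from 19.6 to 12.5 and from 52.7 to 35.0 FPKM. Of 16 genes of RNA polymerase I and its factors, 2 fell (12.5%), Taf1c and Polr1d, with a median of −0.40. Of 21 genes of the S6 kinase family and mTORC1 signalling, 4 fell (19%) and 3 rose (14.3%), beside 14.7% and 23.9% of all tested genes. Rps6ka1 fell from 129 to 70.7 FPKM, Myc, a transcription factor that drives ribosome production, from 71.6 to 39.4 FPKM, and Rps6ka4 from 43.2 to 24.5 FPKM. Rps6kl1, Rps6ka6 and Rps6ka2 rose from lower levels, the last from 2.87 to 6.35 FPKM. Rps6kl1 (0.445 and 1.94 FPKM) and Rps6ka6 (0.948 and 2.86 FPKM) reached the minimum of 1 FPKM only in the Tgfbr2-deficient group. The S6 kinase gene Rps6kb1, at 8.20 and 8.81 FPKM, and Mtor, at 7.26 and 8.10 FPKM, did not pass.

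Other large complexes of housekeeping genes also had medians below 0 on the deposited scale. After the same centring those of oxidative phosphorylation and the proteasome lay above 0, and that of the mitochondrial ribosomal proteins did not. In the order named, the median control FPKM of these lists was 119, 114 and 35.2. Among all tested genes 14.7% were lower, and among the other tested genes at 100 FPKM or more 42.9% were. Of 76 mitochondrial ribosomal protein genes, 34 fell (44.7%), with a median of −0.51; examples were Mrps21, from 146 to 81.3 FPKM, and Mrps24, from 58.9 to 33.0 FPKM. Of 89 tested oxidative phosphorylation genes 20 fell (22.5%), with a median of −0.43, such as Ndufs8 of complex I, from 164 to 93.6 FPKM, while Cox6b2, a testis form of a cytochrome oxidase subunit, rose from 5.81 to 22.6 FPKM. Of 39 tested proteasome genes 8 fell (20.5%), with a median of −0.43. They included the immunoproteasome subunits Psmb10, from 94.9 to 43.7 FPKM, Psmb9, from 65.9 to 32.2 FPKM, and Psmb8, from 112 to 63.5 FPKM. Centred on the other genes at 100 FPKM or more, which adds 0.50 to every fold, the medians were −0.04 for the ribosomal proteins and above 0 for the 8 lists of other TOP messenger RNAs, initiation, elongation, assembly, RNA polymerase I, S6 kinases and mTORC1, proteasome and oxidative phosphorylation. That centring leaves the cytoplasmic ribosomal protein genes where the other abundant genes were, and the calls of single genes rest on the authors' own scaling.

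**Figure D5:**
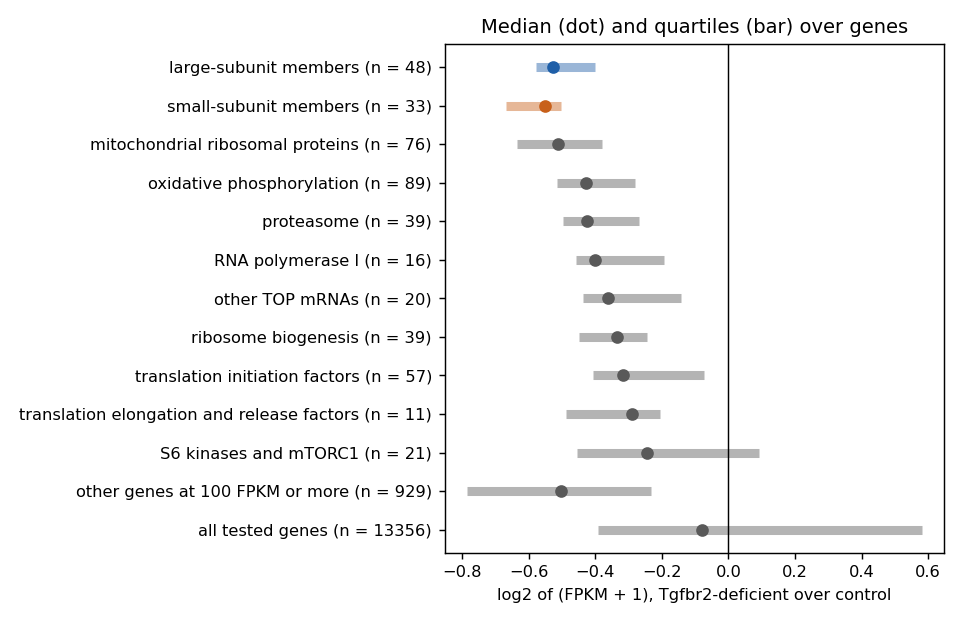
Median (dot) and quartiles (bar) over genes of the log2 fold on FPKM + 1 (Tgfbr2-deficient over control, x axis) for ribosomal protein genes of each subunit, for related gene lists, for the other genes at 100 FPKM or more and for all tested genes (y axis, with the number of tested genes). Both subunits have medians near those of mitochondrial ribosomal proteins (−0.51) and of the other abundant genes (−0.50). Centred on the latter, the medians of 8 of the related lists lie above 0. Most of these lists have lower median levels than the genes used for centring.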

How the data were processed

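Per the labels' protocols, RNA was taken with a micro column kit, amplified from poly(A) tails with SMART-Seq v4 and built into libraries with Nextera XT; neither kit marks strand. The submitters' processing notes name TopHat2 0.7, Cufflinks 2.2.1, Cuffdiff and the mm10 build. The sources used here do not give the annotation or the test options. Per the file headers, the deposited table is gene-level Cuffdiff output with control as the first group. The authors' FPKM values are 1 per gene and group, and the table holds 0 columns of values per library, so depth is unknown and no interval was set. The deposited log2 fold carries no pseudocount and was within 3.6e-05 of the value recomputed from both FPKM columns. The test statistic, a score, was deposited as well and not used. The p-values and q-values are the authors' Cuffdiff results as deposited, and no further test was run.

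A gene counted as tested with status OK and an FPKM of 1 or more in either group, and as called at q under 0.05. Folds are log2 of (FPKM + 1), which understates changes of low genes. The members, gene lists and threshold were chosen with earlier results of these data known. Genes named were members that passed with at least a 1.5-fold difference, members against the median, the 10 most and 10 least abundant tested members, paralogues, and up to 4 genes per related list; others are examples chosen after their values were seen. A few genes that meet these criteria are not reported here. Map positions are those of the table in mm10, and GENCODE M21 and RefSeq tables are of the same assembly, GRCm38. Shared windows were exact matches, on either strand, to transcripts of genes at other positions. Work was done in Python 3.11.15 with pandas 2.3.3, numpy 2.4.6, scipy 1.17.1 and matplotlib 3.10.9, and the counting code was tested on simulated data. Alternatives tried were other FPKM minimums, pseudocounts, thresholds, scalings and member sets.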

Additional observations from a re-analysis of the deposited data

How the results depend on the processing

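No paired analysis was possible because the deposited table has no values per library, and for the same reason no library could be left out. At q under 0.01 the genes that fell numbered 11 of 82, with 3 of the large and 8 of the small subunit, beside 7.68% of all tested genes; fewer genes pass by construction. With only the genes below 50% shared windows, 8 fell, 3 and 4 by subunit, because fewer genes remain. Centred on the other genes at 100 FPKM or more, the medians were −0.0395 for the family, −0.0262 for the large and −0.0507 for the small subunit. At equal totals they were −0.35, −0.33 and −0.36, and without Hba-x and Hbb-bh1 −0.28, −0.27 and −0.29. That centring turned the medians of other TOP messenger RNAs (0.14), initiation (0.18), elongation (0.21), assembly (0.17), RNA polymerase I (0.10), S6 kinases and mTORC1 (0.26), proteasome (0.0765) and oxidative phosphorylation (0.0734) and the fold of Rpl23 (0.0069) above 0; at equal totals without the globins the S6 kinase and mTORC1 median was 0.0182. The counts of 42 lower and 0 higher genes kept within 1.5 times with no FPKM minimum, minimums of 5 and 100 FPKM (38 lower), q-values recomputed over the tested genes, entries of several names added, and paralogues or wide entries left out. The choices of shared windows, wide entries, summed loci and equal totals were made after seeing the data. Depth is unknown, so what it limits cannot be stated.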
